A study of Homo sapiens with 5 samples.

Results

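JMJD3 binding sites that were listed in irradiated fibroblasts, were at least 200 bp wide and had no counterpart before irradiation are described here. They were selected by 4 measured properties of the site lists. A site had to stand in the JMJD3 list of irradiated cells with a width of 200 bp or more, to share no base with a JMJD3 site of untreated cells, to share no base with a p53 site of irradiated cells, and to lie outside long chains, which are 10 or more JMJD3 sites of irradiated cells joined by gaps of at most 5 kb. These criteria were met by 10382 of the 35133 JMJD3 sites after irradiation (29.6%), which covered 2.96 Mb or 35.7% of the length of that list. They are called gained wide sites below. The 17358 sites that met every criterion except the width are called gained narrow sites.

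The study mapped both proteins by ChIP-seq, which sequences the DNA that an antibody recovers together with its protein, in BJ cells, a human foreskin fibroblast line kept dividing by telomerase. Untreated cells were compared with cells that had received ionizing radiation (IR, a dose of 10 Gy) and were harvested after 6 h according to the sample labels, each with an antibody against JMJD3 and, separately, the DO-1 antibody against p53. There was 1 library for each antibody and condition, so no value below has a replicate behind it and conditions were described without a test. The lists give positions alone (hg18 assembly, printed counting from 1), with no height, score or read number, so the depth of the libraries is unknown. They held 4717 JMJD3 sites of untreated cells, 361 p53 sites of untreated cells and 3232 p53 sites of irradiated cells. No site in these 3 lists was under 200 bp, whereas the JMJD3 list of irradiated cells went down to 125 bp, and whether its peaks were called with another setting is not given in the sources used here.

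JMJD3, also named KDM6B, removes methyl groups from lysine 27 of histone H3, a mark that Polycomb complexes place on repressed chromatin. The enzyme belongs to the Jumonji family of demethylases and is induced by several stress and differentiation signals. p53 is a transcription factor that is stabilized after DNA damage and binds response elements near genes of cell cycle arrest, apoptosis and DNA repair. Gained wide sites are by construction places where JMJD3 was listed after IR without a p53 site on the same bases, and the question they address is where such JMJD3 binding lies relative to the JMJD3 sites of untreated cells and to p53. Sites too weak for the peak caller are missing from a list, so "gained" means listed after IR only and does not show that JMJD3 was absent before. A gene annotation of hg18 was not used here, so sites are given by position and not by gene.

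Most JMJD3 sites after IR had no counterpart before IR, and wide ones had a counterpart more often. Among all JMJD3 sites of irradiated cells 88.1% shared no base with a JMJD3 site of untreated cells, and among the 15468 sites of at least 200 bp the share was 77.4%. Both shares belong to the choice of the sites and are given as background. Of the 15468 wide sites, 3503 (22.6%) lay over a JMJD3 site of untreated cells. A further 325 (2.10%) lay over a p53 site of irradiated cells only. Another 1258 (8.13%) lay over neither but stood in a long chain, and the remaining 10382 (67.1%) are the gained wide sites.

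The limits of the choice cut through continuous distributions. Exactly 200 bp was the width of 116 gained wide sites, and 116 gained narrow sites were just 1 bp narrower. The width of 1160 gained wide sites exceeded the limit by less than 10 bp, and 1362 gained narrow sites missed it by at most 10 bp. Only 48 gained wide sites came within 50 bp of a JMJD3 site of untreated cells without touching it, and 10 came as close to a p53 site of irradiated cells. At the limit for chains, 200 gained wide sites stood in chains of 9, while 157 wide sites over neither list stood in chains of exactly 10 and were left out.

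Gained wide sites were mostly only a little wider than the limit. Their median width was 256 bp, with quartiles of 223 and 314 bp, and 95% of them were narrower than 463 bp. The widest measured 2575 bp. By class, 4734 of the gained wide sites (45.6%) were 200 to 249 bp wide, 2550 (24.6%) were 250 to 299 bp, 2122 (20.4%) were 300 to 399 bp, 835 (8.04%) were 400 to 599 bp and 141 (1.36%) were 600 bp or wider. The 2617 sites of at least 200 bp that lay over a JMJD3 site of untreated cells, outside long chains, had a median of 370 bp and quartiles of 282 and 501 bp, and 427 of them (16.3%) reached 600 bp. Width was a criterion for the gained sites and the overlap separates both classes, so this difference is a description.

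**Figure D1:**
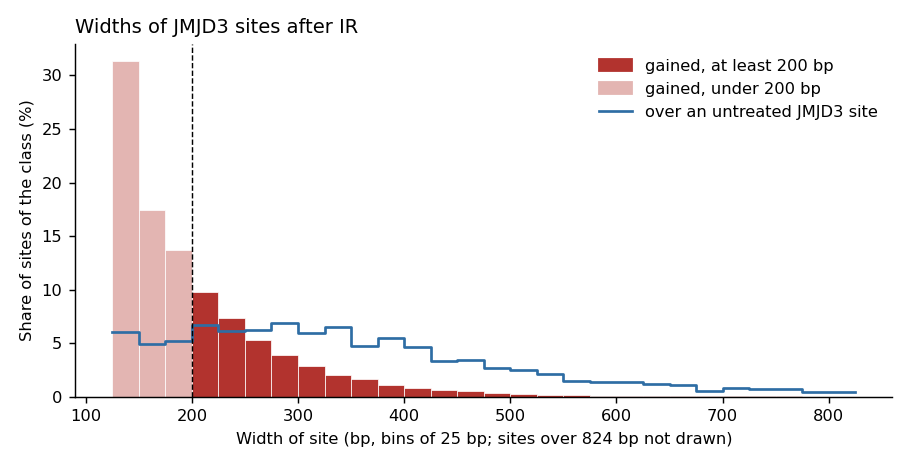
Widths of the JMJD3 sites after IR outside long chains, in bins of 25 bp, as a share of the sites of each class. Bars are gained sites, dark from 200 bp on (dashed line), and the blue line is sites over a JMJD3 site of untreated cells. The bars fall from 31.4% at 125 to 149 bp without a gap at 200 bp, where the bin of 200 to 224 bp holds 9.74% of gained sites.

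Part of the gained wide sites lay close beside the JMJD3 sites of untreated cells. Of the 10382 sites, 696 lay within 1 kb of such a site without touching it (6.70%, exact Clopper-Pearson 95% interval 6.23 to 7.20%). Within 10 kb there were 1809 (17.4%, 16.7 to 18.2%) and within 100 kb 4848 (46.7%, 45.7 to 47.7%). The median distance was 118 kb, with quartiles of 24.2 and 383 kb. These intervals, like all others here, cover counting error only, and because neighbouring sites are not independent they are too narrow for what a repeat of the experiment would give.

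The density of gained wide sites fell at every step away from the JMJD3 sites of untreated cells. Between 0.5 and 1 kb from the nearest of them there were 319 gained wide sites, or 90.0 per Mb of such sequence (exact Poisson 95% interval 80.4 to 100.5 per Mb). The density was 23.0 per Mb at 2 to 5 kb, 11.0 per Mb at 10 to 20 kb, 6.13 per Mb at 50 to 100 kb and 2.0 per Mb at 500 to 1000 kb (1.88 to 2.12). The innermost shell was thus 45.0 times as dense as the outermost. For gained narrow sites the same ratio was 28.9, from 112 to 3.87 per Mb. Gaps and sequence to which tags cannot be uniquely aligned were not masked and count as length wherever they fall.

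Taken over all gained sites, width went along with this proximity. Of the gained wide sites 17.4% lay within 10 kb of a JMJD3 site of untreated cells, against 14.7% of the gained narrow sites (14.2 to 15.2%), and the share was higher for the wide sites on 22 of 22 autosomes. Within the gained wide sites the share rose from 14.6% (13.6 to 15.7%) at 200 to 249 bp to 28% (25 to 31.2%) at 400 to 599 bp and 39.7% (31.6 to 48.3%) at 600 bp or more. Seen the other way, 41.4% of the gained wide sites within 1 kb of a JMJD3 site of untreated cells were at least 300 bp wide (37.7 to 45.1%), against 26.3% of those more than 100 kb away (25.2 to 27.5%). Among sites with no other JMJD3 site of irradiated cells within 5 kb, a comparison chosen after the values were seen, only 3.65% of 5208 gained wide sites and 3.22% of 9769 gained narrow sites lay within 10 kb of a JMJD3 site of untreated cells, and the intervals overlapped (3.16 to 4.19% and 2.88 to 3.59%). These low shares follow largely from the restriction, since only 622 of the 4717 JMJD3 sites of untreated cells were not listed again after IR and a gained site within 5 kb of a relisted one is not single, so nothing is read from them. A limit of 5 kb weighs less within 100 kb, where lay 32.8% of the single wide sites (31.5 to 34.1%) and 32.2% of the single narrow sites (31.3 to 33.2%). Over all gained sites these shares were 46.7% and 43.7%, so among single sites the classes differed little. The share of 17.4% was 24.8% when long chains were kept in and 10.8% when chains of 5 or more were left out as well, so it depended on which chains were left out.

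**Figure D2:**
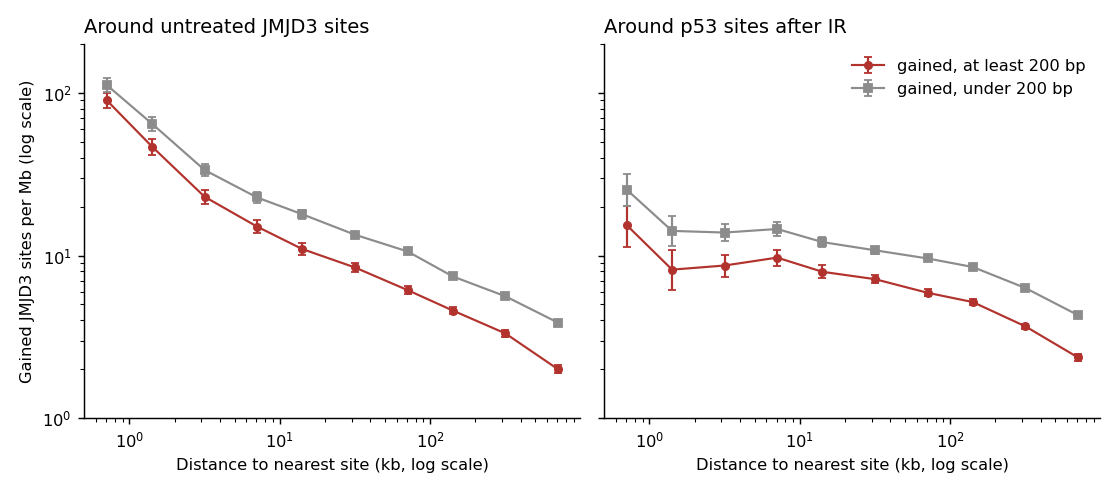
Gained JMJD3 sites per Mb against the distance from the centre of the site to the nearest JMJD3 site of untreated cells (left) or p53 site of irradiated cells (right), both axes logarithmic, bars exact Poisson 95% intervals. On the left the density of sites of at least 200 bp (red) falls from 90.0 to 2.0 per Mb, and on the right from 15.4 to 2.36 per Mb, with little change between 1 and 20 kb.

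Around p53 sites the gained wide sites showed a flatter pattern. Within 1 kb of a p53 site of irradiated cells lay 111 of them (1.07%, 0.880 to 1.29%), within 10 kb 621 (5.98%, 5.53 to 6.45%) and within 100 kb 3716 (35.8%). The median distance was 168 kb. The density was 15.4 per Mb at 0.5 to 1 kb, resting on 49 sites (11.4 to 20.3 per Mb), and 8.19 per Mb at 1 to 2 kb (6.11 to 10.7). It stayed near that level out to 10 to 20 kb, where it was 7.94 per Mb (7.24 to 8.69), and reached 2.36 per Mb at 500 to 1000 kb. Gained wide and gained narrow sites had similar shares close to p53 and differed slightly farther out. The share within 1 kb of p53 was 1.07% in both classes and the share within 10 kb was 5.67% for narrow sites (5.33 to 6.02%), with the wide sites higher on 13 of 22 autosomes. Within 50 kb the shares were 21.97% of the wide sites (21.2 to 22.8%) and 20.1% of the narrow sites (19.5 to 20.7%). Within 100 kb they were 35.8% (34.9 to 36.7%) and 33.6% (32.8 to 34.3%), so that the wide sites were higher at both distances and the intervals did not overlap. Among the gained wide sites the share within 10 kb of p53 was larger for wider sites, as it was near JMJD3 sites of untreated cells. It was 5.51% at 200 to 249 bp (4.88 to 6.20%), 8.26% at 400 to 599 bp (6.49 to 10.3%) and 14.2% at 600 bp or more (8.88 to 21.1%, 20 of 141 sites). The 20 sites include the widest gained sites, which share a chain on chromosome 6. Seen the other way, 32.4% of the gained wide sites within 1 kb of p53 were at least 300 bp wide (23.9 to 42.0%). The share was 35.3% at 1 to 10 kb (31.1 to 39.6%) and 28.8% beyond 100 kb (27.7 to 29.9%), so the sites nearest to p53 were not clearly wider.

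Where gained wide sites did come close to p53, the p53 site itself was often also a JMJD3 site. For 59 of the 111 gained wide sites within 1 kb of p53 (53.2%, 43.4 to 62.7%), the nearest p53 site was overlapped by another JMJD3 site of irradiated cells. Over all 3232 p53 sites of irradiated cells, 686 (21.2%) were overlapped by JMJD3. The corresponding value for gained narrow sites was 81 of 186 (43.5%, 36.3 to 51.0%), whose interval overlaps that of the wide sites. The values for p53 sites beside gained sites count a p53 site more than once where it has several neighbours.

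No gained wide site lay over a p53 site of untreated cells, a list the choice did not use. The count of 0 of 10382 allows a share of up to 0.0289%, taking 3 sites of the total as the limit of a count of 0 in place of an exact interval. Little overlap was possible, since only 16 of the 361 p53 sites of untreated cells lay clear of the p53 sites of irradiated cells, which the choice avoids. The nearest approach was 234 bp, and 1 of the 17358 gained narrow sites did lie over such a site. With removal only at an overlap of 50% of the width, 1 wide site did so too.

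Counting neighbours of any width within 5 kb, gained wide sites stood alone about as often as they had neighbours. Within 1 kb 30.8% had a neighbour, and 32.5% had a neighbour of at least 200 bp within 5 kb. Of the 10382 sites, 5208 (50.2%, 49.2 to 51.1%) had no other JMJD3 site of irradiated cells within 5 kb, and the other 5174 (49.8%) lay in chains of 2 to 9. Chains of 2 held 2178 of them (21.0%), chains of 3 held 1050 (10.1%), and each larger chain size at most 616. Gained narrow sites were alone more often, 9769 of 17358 (56.3%, 55.5 to 57.0%), and the share with a neighbour within 5 kb was higher for the wide sites on 21 of 22 autosomes. Wide sites over a JMJD3 site of untreated cells were alone in 921 of 2617 cases (35.2%).

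The neighbours of gained wide sites had a make-up close to that of the neighbours of gained narrow sites. In the chains of the wide sites the gap to the nearest JMJD3 site had a median of 588 bp, with quartiles of 192 and 1887 bp and a minimum of 45 bp. That nearest site was a gained narrow site for 2563 of the 5174 (49.5%) and another gained wide site for 1884 (36.4%). It was a site over a JMJD3 site of untreated cells, whether or not also over p53, for 662 (12.8%, 11.9 to 13.7%). It was a site over p53 but over no JMJD3 site of untreated cells for 65 (1.26%). For gained narrow sites with a neighbour the same shares were 52.8, 34.8, 11.0 and 1.41%. Since 88.1% of all JMJD3 sites after IR had no counterpart before IR, mostly gained neighbours are no trait of the gained wide sites. A total of 3426 chains held at least 1 gained wide site. Of these, 2496 (72.9%) consisted of gained sites only and 842 (24.6%) included a site over a JMJD3 site of untreated cells. A site over p53 but over no JMJD3 site of untreated cells was included in 103 (3.01%), with 15 chains counted in both of the last groups. Sites over both lists count only in the group of 842, so 103 is not the number of all chains with a site over p53. These shares, too, stand against a list in which 88.1% of the sites had no counterpart, and nothing is read from them.

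Wider sites were more frequent in larger chains. At least 300 bp was the width of 26.0% of the gained wide sites that stood alone (24.8 to 27.3%), of 28.8% in chains of 2, of 36.2% in chains of 4 and of 43.0% in chains of 9 (36.0 to 50.2%). From chains of 5 upwards the shares lay between 39.1 and 43.6% and their intervals overlapped. The median width rose from 251 bp for single sites to 281 bp in chains of 9. The wide sites over a JMJD3 site of untreated cells were also wider in chains than alone, though with no steady rise. At least 300 bp was the width of 63.4% of them when alone, of 82.4% in chains of 6, of 70.6% in chains of 8 and of 78.3% in chains of 9.

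**Figure D3:**
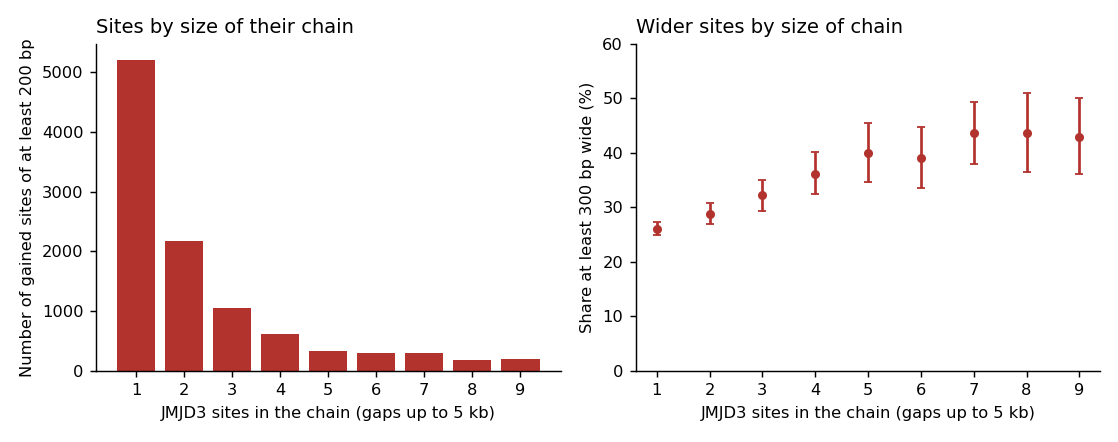
Left, number of gained wide sites by the number of JMJD3 sites in their chain, where 1 means no other JMJD3 site within 5 kb. Right, share of these sites that are at least 300 bp wide, with exact 95% intervals, which goes from 26.0% for single sites to 43.0% in chains of 9.

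The 3 widest gained sites lay in the same chain on chromosome 6. The widest spanned 36754424 to 36756998 (2575 bp), the next 36760800 to 36763123 (2324 bp) and the third 36764971 to 36766563 (1593 bp). The chain ran over 14462 bp from 36752102 to 36766563 and held 9 JMJD3 sites, the largest number the choice allows. Of these, 5 were gained wide sites covering 8053 bp together, 1 was a gained narrow site of 125 bp and 3 lay over p53. The widest of the sites over p53 was 3041 bp. The 2 remaining gained wide sites of the chain were 406 and 1155 bp wide.

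Both proteins were listed in this stretch after IR, p53 at fewer bases than JMJD3. In untreated cells the nearest JMJD3 site was 65.5 kb from the chain, so none of its 9 sites had a counterpart within that distance. p53 was listed before IR at 2 sites near one end of the chain, and after IR at 4 sites there and in its middle. The widest gained site began 25 bp beyond a p53 site of irradiated cells (36754126 to 36754398, 273 bp), and the gained sites at the other end lay 2189 to 6360 bp beyond the last p53 site (36758174 to 36758610, 437 bp). The 4 p53 sites measured 200 to 1554 bp, and the 9 JMJD3 sites covered 11578 bp.

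**Figure D4:**
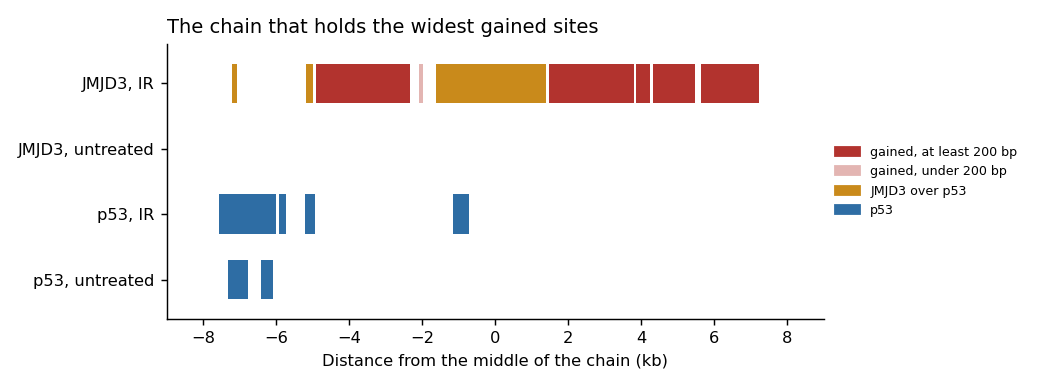
Sites of all 4 lists in and around the chain with the widest gained sites, drawn to scale as distance from its middle in kb. Red blocks are the 5 gained wide sites, gold blocks are JMJD3 sites over p53, the pale block is the gained narrow site and blue blocks are p53 sites. The row of JMJD3 in untreated cells is empty.

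The next widest gained sites stood in different surroundings. On chromosome 10 from 104410038 to 104411481 (1444 bp) the nearest p53 site of irradiated cells was 30.2 kb away and the nearest JMJD3 site of untreated cells 401 kb away. On chromosome 14 from 37748183 to 37749400 (1218 bp) a JMJD3 site of untreated cells was only 109 bp away and the nearest p53 site 813 kb away. Both sites had another JMJD3 site after IR close by, at 1507 and 83 bp.

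The 3 gained wide sites nearest to p53 were 251 to 445 bp wide. They lay on chromosome 2 from 24160254 to 24160519 (266 bp, 12 bp from p53), on chromosome 11 from 12044448 to 12044698 (251 bp, 13 bp from p53) and on chromosome 5 from 169336648 to 169337092 (445 bp, 16 bp from p53). Such gaps are smaller than the sites themselves. Under a stricter choice, in which any p53 or untreated JMJD3 site within 1 kb removes a site, 9594 gained wide sites remained.

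The gained wide sites farthest from any JMJD3 site of untreated cells lay on the sex chromosomes, where such sites were sparsest per Mb. Chromosome Y held 2 JMJD3 sites of untreated cells (0.109 per Mb) and chromosome X 103 (0.683 per Mb), the latter hardly below chromosome 13 (0.684 per Mb). The farthest was on chromosome Y from 21146878 to 21147093, at 7972 kb. The next was on chromosome X from 31149178 to 31149465, at 7595 kb, and the one after it again on chromosome Y from 20306116 to 20306333, at 7131 kb. The site on chromosome X was 7.92 kb from a p53 site of irradiated cells.

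The 3 chains with the most gained wide sites had no p53 site within 100 kb. A chain on chromosome 4 from 9717264 to 9729054 held 7 gained wide sites of 209 to 348 bp and 2 gained narrow sites over 11791 bp. The nearest JMJD3 site of untreated cells was 325 kb away and the nearest p53 site 1601 kb away. On chromosome 12 a chain from 107551542 to 107559229 held 6 gained wide sites of 271 to 746 bp, with a JMJD3 site of untreated cells 0.456 kb from it and p53 at 984 kb. On chromosome 20 a chain from 61795718 to 61802261 held 6 gained wide sites of 292 to 500 bp together with 1 site that was listed before IR as well, and p53 was 118 kb away. So these 3 chains ranged from far away from any earlier JMJD3 site to directly around one.

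On the scale of 1 Mb, gained wide sites gathered where JMJD3 had been listed before IR. Of 2959 windows of 1 Mb, 2057 (69.5%) held at least 1 gained wide site, the median was 2 and the largest number 30. The 1566 windows without a JMJD3 site of untreated cells held a mean of 1.45 gained wide sites (SD 2.19 between windows), those with 1 such site 3.56 (SD 3.13), those with 3 to 5 held 6.75 (SD 3.94) and the 217 windows with 6 or more held 10.7 (SD 5.68). The spread between windows is wide against these steps. Gaps and sequence to which tags cannot be uniquely aligned were not masked in the windows either, and they lower the means of windows without listed sites. Only 48.8% of the windows without a JMJD3 site of untreated cells held a gained wide site. The windows without a JMJD3 site of untreated cells, 52.9% of all, contained 21.9% of the gained wide sites and 24.3% of the gained narrow sites. Grouped by p53 sites of irradiated cells, the means went from 1.67 (SD 2.87) in windows without p53 to 10.7 (SD 6.41) in the 25 windows with 6 or more. The same windows enter both groupings, and the groupings were not crossed, so what goes with JMJD3 and what goes with p53 was not separated here.

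A small part of the windows held much of the class. At least 10 gained wide sites stood in 277 windows (9.36%), which together contained 3686 sites (35.5%). The richest windows, with 30 gained wide sites each, were those of chromosome 15 from 37000001 to 38000000 and of chromosome 12 from 64000001 to 65000000. They held 16 and 12 JMJD3 sites of untreated cells and 4 and 3 p53 sites of irradiated cells. Next came 4 windows with 24 gained wide sites, on chromosome 9 from 129000001, on chromosome 5 from 14000001, on chromosome 6 from 140000001 and on chromosome 2 from 46000001, each with 6 to 8 JMJD3 sites of untreated cells.

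Across chromosomes the density of gained wide sites varied several-fold. Chromosome 19 had the highest, 473 sites or 7.47 per Mb of the stretch that the lists span, followed by chromosome 22 (5.82 per Mb) and chromosome 17 (5.81 per Mb). Among the autosomes chromosome 13 (2.23 per Mb) and chromosome 4 (2.30 per Mb) had the lowest. Chromosomes 17, 19 and 22 are known to be rich in genes, and chromosomes 4, 13 and 18 to be poor in them. The first group together carried 1123 gained wide sites (6.41 per Mb) and the second 870 (2.40 per Mb), a ratio of 2.67 (exact 95% interval 2.44 to 2.92). For JMJD3 sites of untreated cells the ratio was 4.17 (3.66 to 4.75) and for p53 sites of irradiated cells 1.94 (1.65 to 2.29), with the gained wide sites between both. Gained narrow sites had a ratio of 2.50 (2.34 to 2.68), whose interval overlaps that of the wide sites.

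Set against the JMJD3 sites already listed before IR, the ratio between these 2 groups of chromosomes turned around. The 3 gene-rich chromosomes had 1.6 gained wide sites for each JMJD3 site of untreated cells and the 3 gene-poor ones 2.50, a ratio of 0.640 (0.585 to 0.700). It turned for gained narrow sites too, whose interval was 0.561 to 0.642. Both intervals take the numbers of JMJD3 sites of untreated cells (702 and 348) as fixed and leave out their counting error, so they are too narrow. Chromosomes taken singly did not follow a reversed order, since chromosome X was low in both respects (1.03 per Mb and 1.505 per JMJD3 site of untreated cells). The lowest number was on chromosome 19 (1.40) and the highest on chromosome 13 (3.26). The share of gained sites that were wide differed little between autosomes, from 34.5% on chromosome 4 (31.9 to 37.2%) to 40.4% on chromosome 15 (37.2 to 43.8%), with 37.4% over all gained sites.

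**Figure D5:**
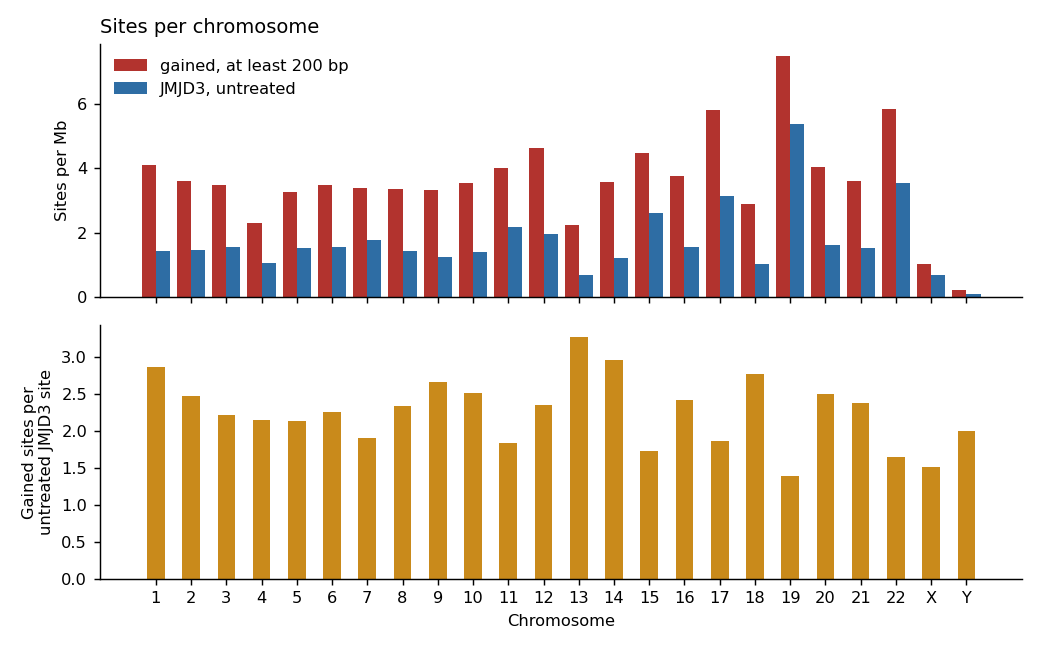
Top, gained wide sites (red) and JMJD3 sites of untreated cells (blue) per Mb of each chromosome's spanned stretch. Bottom, gained wide sites for each JMJD3 site of untreated cells. Chromosome 19 is highest in the top panel (7.47 per Mb) and lowest in the bottom panel (1.40).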

How the data were processed

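Per the submitters' processing notes and the study's methods, the authors aligned the ChIP-seq tags to hg18 with Bowtie 0.12.7, kept unique alignments and used SAMtools. Sites were called library by library by MACS2, with IgG as the control. The IgG library of the series is labelled untreated, and none of irradiated cells is listed. The calling threshold is not given in the sources used here. The labels and the study's text differ on the time after IR, and the labels' time is printed. The deposited files hold site positions in BED form, with no score and no read counts. The IgG library was not analysed here. Depth is unknown, so no precision could be derived from it.

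Gaps, overlaps (at least 1 bp), chains and windows were computed with numpy 2.4.6 and pandas 2.3.3 in Python 3.11.15, bedtools 2.31.1 gave the same number of gained wide sites (10382), and the steps were tested on simulated data. Intervals are exact Clopper-Pearson (shares) or Poisson (densities) intervals from scipy 1.17.1. The interval of a density ratio came from the binomial interval of the share. Distances run from edge to edge, except for densities, which use the centre of a gained site. No test was made, because each condition has 1 library. Figures were drawn with matplotlib 3.10.9.

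The members, comparison classes and chromosome groups were chosen with earlier results of these data known. Sites named are the 5 widest, the 3 nearest to p53, the 3 farthest from JMJD3 sites of untreated cells, and the 3 chains and 3 windows of 1 Mb with the most gained wide sites, with ties included. Alternatives tried were minimum widths of 250 and 300 bp, other overlap and chain rules, autosomes only, and other neighbour rules. Promoter shares were planned, but a gene annotation and genome of hg18 were not used here, so neither genes nor sequences are given.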

Additional observations from a re-analysis of the deposited data

How the results depend on the processing

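Of 61 comparisons with an alternative, 28 stayed within the counting interval (for numbers of sites, within 1.5 times), 32 moved by more and 1 turned direction. The last is the ratio of gene-rich to gene-poor chromosomes, 2.67 per Mb but 0.640 per JMJD3 site of untreated cells. In what follows the values reported are 10382 sites, a median width of 256 bp, 17.4% within 10 kb of a JMJD3 site of untreated cells, 5.98% within 10 kb of p53, 49.8% with a neighbour within 5 kb and the chromosome ratio of 2.67. A minimum of 250 bp gave 5648 sites, 307 bp, 19.8% near JMJD3 and 53.1% with a neighbour. A minimum of 300 bp gave 3098 sites, 359 bp, 22.2% near JMJD3, 6.97% near p53, 56.2% with a neighbour and a ratio of 3.10. Fewer and wider sites follow from these minima by construction, and for the other values the cause was not tested. Removal of sites within 1 kb of either list gave 11.5%, 5.01% and 46.2% with a neighbour, the first 2 by construction. Removal only at 50% overlap gave 260 bp, 21.0% near JMJD3 and 6.51% near p53 (both higher by construction, since sites touching these lists enter), 51.3% with a neighbour and 1 site over p53 of untreated cells in place of 0. Keeping long chains gave 259 bp, 24.8% and 55.3% with a neighbour. Leaving out chains of 5 or more gave 254 bp, 10.8%, 5.49%, 42.5% with a neighbour and a ratio of 2.40. Under both of these settings the share with a neighbour moved by construction, since every site of a chain has a neighbour within 5 kb. Joining chains over 10 kb gave 15.6% and 47.9% with a neighbour. A neighbour within 1 kb was found for 30.8%, and 1 of at least 200 bp within 5 kb for 32.5%. Single sites alone, chosen after the data were seen, gave 3.65% near JMJD3, low largely by construction because most earlier JMJD3 sites were listed again and count as neighbours, and 4.09% near p53. Autosomes only moved nothing beyond these limits. Promoter distances were not run for want of an hg18 annotation. No paired analysis was possible because no condition was sequenced more than once. Unknown depth limits what absence from the untreated list means.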

Other observations

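Some gained wide sites lay in stretches without either comparison list. In 971 of the 2959 windows of 1 Mb neither a JMJD3 site of untreated cells nor a p53 site of irradiated cells was listed, and these windows held 735 gained wide sites (7.08%).

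JMJD3 sites of untreated cells that were not listed again sometimes had a gained site beside them. Of 622 such sites, 287 had a JMJD3 site of irradiated cells within 1 kb. The nearest of these was a gained wide site in 74 cases and a gained narrow site in 101 cases. This is no trait of the sites not listed again, which were 622 of 4717. Of the 696 gained wide sites within 1 kb of a JMJD3 site of untreated cells, 592 lay beside a site that was listed again.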
